A study of Mus musculus with 6 samples.

Results

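Ligands and receptors of the tumour necrosis factor (TNF) superfamily were followed in bulk RNA sequencing of cartilage cells (chondrocytes) of the mouse. The 10 genes were taken by symbol from the deposited count table of 23867 genes: the ligands Tnf, Tnfsf11 and Tnfsf12, and the receptors Tnfrsf1a, Tnfrsf1b, Tnfrsf11a, Tnfrsf11b, Tnfrsf12a, Tnfrsf9 and Fas. All 10 were found and all 10 passed the filter on low counts, which left 15028 genes for testing. The compared groups were 3 wild-type libraries (genotype MFN2wt, called WT1 to WT3) and 3 libraries of genotype MFN2Col2a1-/- (called CRE1 to CRE3, here the knockout). The knockout label pairs a loss of Mfn2, which encodes the mitochondrial fusion protein mitofusin 2, with Col2a1, the gene of the main cartilage collagen. No source used here gives strain, age, sex or what drives Cre. The series title places the work in osteoarthritis and the crosstalk of mitochondria with the endoplasmic reticulum. No treatment is named for either group. Whether replicate libraries are separate animals or cultures is not labelled, so a p-value here speaks only of the spread among these 6 libraries.

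TNF superfamily ligands are mostly membrane-bound trimers that cluster receptors of the matching receptor superfamily. Some of these receptors carry a death domain and can start apoptosis, and others recruit TRAF adaptors and switch on NF-kB and MAP kinase signalling. RANKL (Tnfsf11) binds RANK (Tnfrsf11a) on osteoclast precursors of the monocyte lineage and drives them to become osteoclasts, and osteoprotegerin (OPG, Tnfrsf11b) is a secreted decoy receptor that keeps RANKL from RANK. Chondrocytes and other mesenchymal cells of the joint are known sources of both RANKL and OPG, and TNF is a classic inflammatory cytokine of the joint that is made largely by macrophages.

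The promoters of the 3 genes shown here belong to the ligand with the largest rise, the ligand with the largest fall and the receptor with the largest rise. They are RefSeq promoters of build GRCm38.p6, from 250 bases before to 50 bases after the start, read 5′ to 3′ on the strand of the gene, and capitals mark motif matches.
Tnfsf11 (RANKL), chr14:78307994-78308293, minus strand: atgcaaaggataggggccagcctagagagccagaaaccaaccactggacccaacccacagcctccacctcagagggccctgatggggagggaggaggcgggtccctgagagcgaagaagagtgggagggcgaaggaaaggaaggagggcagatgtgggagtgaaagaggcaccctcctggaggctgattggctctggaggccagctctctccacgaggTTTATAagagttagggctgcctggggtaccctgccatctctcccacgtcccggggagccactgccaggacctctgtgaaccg
Tnf, chr17:35201958-35202257, minus strand: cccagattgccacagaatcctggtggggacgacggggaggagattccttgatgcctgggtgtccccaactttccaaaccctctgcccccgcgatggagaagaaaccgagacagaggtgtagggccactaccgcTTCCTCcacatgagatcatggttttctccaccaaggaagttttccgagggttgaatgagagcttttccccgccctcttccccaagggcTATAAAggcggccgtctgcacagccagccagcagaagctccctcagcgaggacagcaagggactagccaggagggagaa
Tnfrsf9 (4-1BB), the downstream one of 2 listed starts, chr4:150927749-150928048, plus strand: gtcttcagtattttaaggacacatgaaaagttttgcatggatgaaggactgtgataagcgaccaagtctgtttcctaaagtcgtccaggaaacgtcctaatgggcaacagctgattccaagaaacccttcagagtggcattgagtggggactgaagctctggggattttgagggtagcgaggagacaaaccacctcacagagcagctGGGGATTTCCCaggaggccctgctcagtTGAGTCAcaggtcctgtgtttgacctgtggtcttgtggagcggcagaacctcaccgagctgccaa
Both strands were searched for the kappaB consensus bound by NF-kB, the AP-1 site TGANTCA, the TATA box TATAAA and GAGGAA, a core of sites for myeloid ETS factors. The Tnf promoter held TATAAA at −29 to −24 and GAGGAA on the opposite strand at −117 to −112. In the Tnfsf11 promoter, TATAAA matched on the opposite strand at −32 to −27. At the downstream start of Tnfrsf9, 2 overlapping kappaB matches covered −43 to −33 and an AP-1 match lay at −15 to −9, while the upstream start held none of the 4 motifs. Of 32851 promoters in the table, 4.51% held a kappaB match, 7.81% an AP-1 match, 13.6% TATAAA and 28.3% GAGGAA. Promoters were listed for 8 of the 10 genes, all but Tnfrsf11b and Tnfsf12. The other matches were AP-1 in the Fas promoter at −211 to −205 and GAGGAA in that of Tnfrsf1b at −208 to −203.

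Knockout libraries held 31481779 to 37814723 counts each, against 39267487 to 40152687 in wild-type libraries. Mfn2 was lower in each knockout library (56.5 to 64.0 CPM, that is, counts relative to the library total) than in any wild-type library (106 to 108 CPM). All 10 chondrocyte markers were detected, with 9 lower and 1 higher in the knockout, and their summed level was 3078 to 3215 CPM in knockout libraries against 8354 to 8539 CPM in wild-type ones. Col2a1 was at 509 against 3395 CPM. Summed macrophage and monocyte markers were at 344 to 355 CPM against 3213 to 3240 CPM, and all 16 fell. Summed levels in the knockout against the wild type were 24567 to 25286 against 15120 to 15242 CPM for fibroblast and synovial lining markers (4 rises and 3 falls among 9), and 28.6 to 29.2 against 98.6 to 103 CPM for osteoblast and osteocyte markers (6 falls among 6 tested). Neutrophil markers were at 5.85 to 6.39 against 0.416 to 1.05 CPM (2 rises and 0 falls among 3 tested). In the knockout this sum was mostly Camp and S100a8. Endothelial markers were at 12.6 to 14.0 against 6.63 to 8.37 CPM (2 rises and 1 fall among 5 tested). Plvap made up most of the endothelial sum in the knockout (9.14 against 2.98 CPM). Kdr, named after its values were seen, fell (log2 fold change −2.50). The abundant fibroblast gene Col1a1 (log2 fold change 0.0064) and the endothelial receptor Tek (−0.14) did not pass the test. Lymphocyte markers summed to at most 0.213 CPM in any library, and 5 of the 6 analysed were at 0 in every knockout library. In such bulk samples, fewer cells of a type and less RNA per cell cannot be told apart. CPM here are scaled by TMM, edgeR's factor between libraries, and values after ± are SDs over n = 3 libraries.

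All 10 genes differed between the groups in edgeR's quasi-likelihood test at a Benjamini-Hochberg adjusted p under 0.05, with 6 higher in the knockout and 4 lower. Of all tested genes 62.7% were called (30.7% higher and 32.1% lower), so a high share of calls was the background of these libraries. The sizes were more spread out than the calls. Called differences of at least 2-fold were found for 5 of the 10 genes, against 19.7% of all tested genes. The median size of the log2 fold change was 1.03 for the 10 genes and 0.34 for all. Tnf, Tnfrsf11a and Tnfrsf9 had at most 13 counts per library in their lower group and passed the filter through the other group. The 10 genes were also chosen with earlier results of these data known, so these contrasts with all genes are descriptive only. Tnfrsf9, Tnfsf11 and Tnfrsf12a rose at least 2-fold and Tnf and Tnfrsf11a fell at least 2-fold. Of all tested genes, 7.73% were called and rose this far, and 12.0% were called and fell this far. Groups did not overlap in CPM for any of the 10 genes, as for 67.1% of all tested genes. The calls of Tnfrsf1a and Fas rested on the scaling. With total counts alone, which moved the median over all genes by −0.209 on the log2 scale, 8 of the 10 genes were called, against 69.3% of all tested genes.

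**Figure D1:**
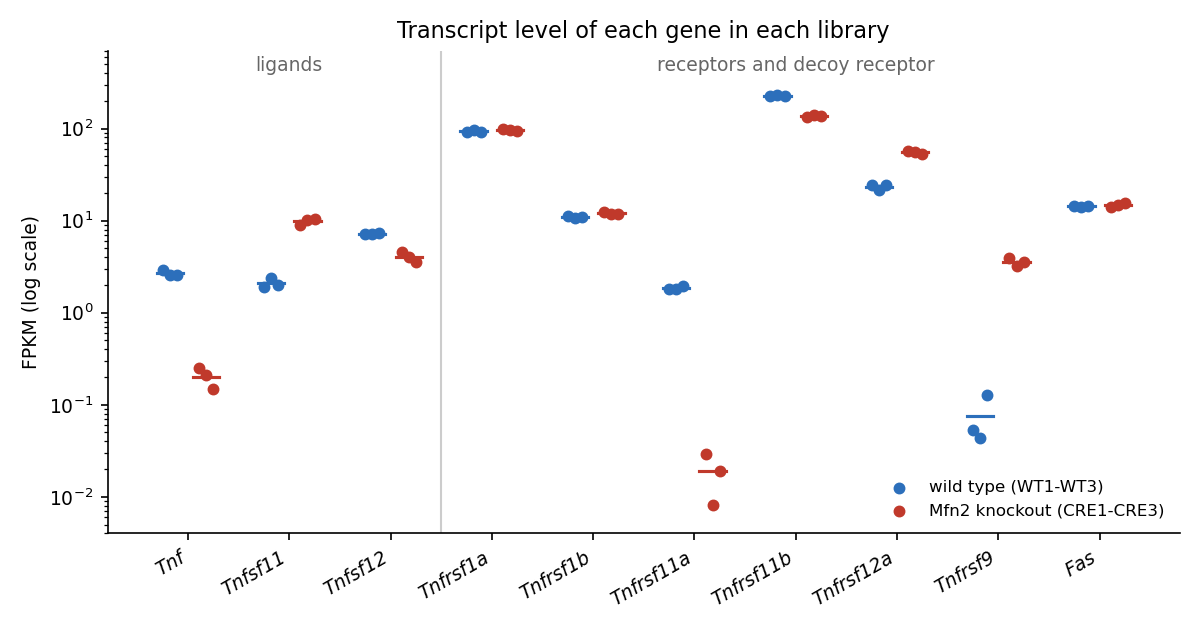
Deposited FPKM (reads scaled to gene length and library total, log axis) of each of the 10 genes in each library, with 3 ligands on the left and 7 receptors on the right; points are libraries and short lines are group means. Tnf and Tnfrsf11a drop in the knockout (red), Tnfsf11, Tnfrsf12a and Tnfrsf9 rise, and Tnfrsf1a and Fas overlap between the groups.

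RANKL rose in the knockout. Tnfsf11 stood at 21.8, 24.2 and 24.9 CPM in CRE1 to CRE3 and at 3.91, 4.95 and 4.16 CPM in WT1 to WT3. Each knockout library lay far above every wild-type library. The means were 23.6 ± 1.62 and 4.34 ± 0.540 CPM, a 5.44-fold rise (2.44 on the log2 scale, SE 0.099, adjusted p = 5.00e-12, edgeR). Only 283 of the 15028 tested genes had a larger log2 fold change. The 3 genes with the most similar profile over the 6 libraries, by the root mean square difference of mean-centred log2 CPM, were Spink5 (0.090), Pdxp (0.091) and Chl1 (0.096). Their log2 fold changes were 2.47, 2.53 and 2.55. With 2 groups this far apart the measure mostly picks genes of like fold change, so it does not show shared regulation.

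OPG moved the other way. Tnfrsf11b stood at 400, 409 and 405 CPM in the knockout libraries and at 578, 588 and 580 CPM in the wild-type libraries, with narrow groups that did not overlap. The fall was 1.44-fold (log2 fold change −0.52, SE 0.026, adjusted p = 7.16e-11, edgeR). It was the most abundant of the 10 transcripts per length in both groups, at 137 ± 2.25 FPKM in knockout libraries and 227 ± 2.22 FPKM in wild-type libraries. Its closest profiles were those of Oaf (0.015), the lysosomal protease gene Ctsd (0.018) and Wdr35 (0.022), on the same measure and with the same limit. These had log2 fold changes of −0.53, −0.52 and −0.54.

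The balance of RANKL to OPG transcripts shifted, and a ratio within a library does not depend on the scaling between libraries. In FPKM, Tnfsf11 was 6.71%, 7.30% and 7.57% of Tnfrsf11b in CRE1 to CRE3, and 0.835%, 1.04% and 0.885% in WT1 to WT3. The groups were far apart, and OPG transcripts still outnumbered RANKL transcripts per length in every library, by 13.9 ± 0.873 times in knockout and 110 ± 12 times in wild-type libraries. The log2 ratio differed by 2.97 between the group means, a 7.85-fold change of the ratio (exact two-sided permutation test, p = 0.1, the smallest that 3 against 3 libraries can give).

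**Figure D2:**
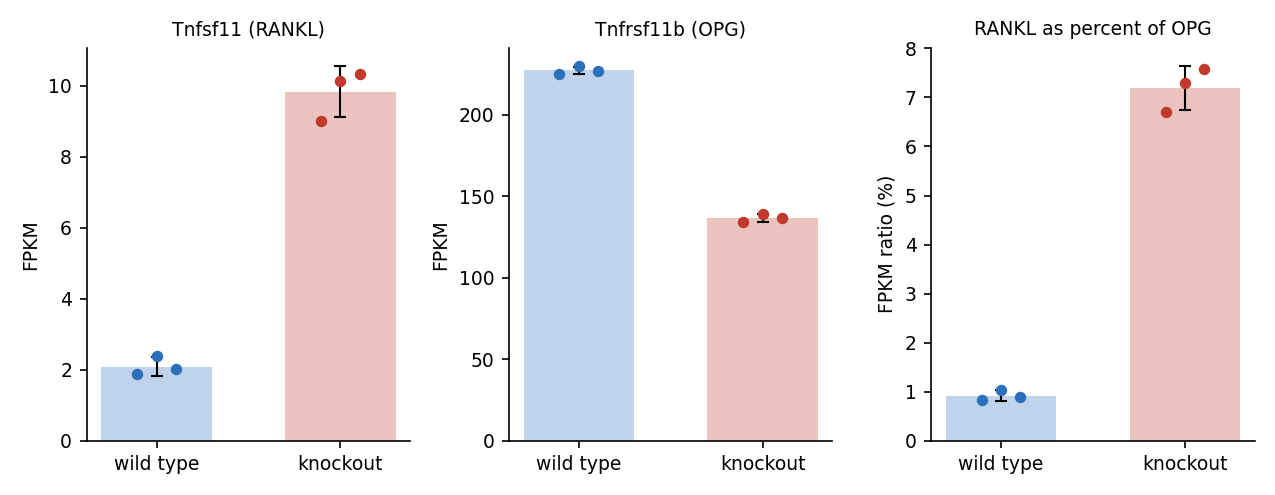
FPKM of Tnfsf11 (left) and Tnfrsf11b (middle) and the first as a percentage of the second (right), by group; bars are means, error bars SDs and points the 3 libraries. The percentage is 6.71 to 7.57 in knockout libraries against 0.835 to 1.04 in wild-type libraries.

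RANK, the receptor of RANKL, fell to a few counts per library in the knockout. Tnfrsf11a had 6, 2 and 4 counts in CRE1 to CRE3 and 466, 466 and 505 counts in WT1 to WT3, which is 0.132 ± 0.075 against 11.2 ± 0.409 CPM. The groups were separated by a wide gap. The fitted log2 fold change reached −6.43 (SE 0.226, adjusted p = 8.89e-13, edgeR), and 23 tested genes had a lower one. Summed over libraries there were 12 against 1437 counts. Scaled by TMM library sizes, this was a wild-type over knockout ratio of 88.4 (exact Clopper-Pearson 95% interval 50.5 to 172, covering counting error only). Macrophage and monocyte markers fell over the same libraries (median −4.02 on the log2 scale), and their part in this result was not tested. The RANKL receptor Lgr4, better known as a receptor of R-spondins, fell less, from 58.9 to 46.0 CPM (log2 fold change −0.36).

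Osteoclast markers went both ways. Of 7 tested markers 3 rose and 2 fell around a median of 0.62 on the log2 scale (71.4% called, against 62.7% of all tested genes). The summed level of the 12 listed markers was 224 to 240 CPM in knockout libraries against 237 to 242 CPM in wild-type libraries. Most of that sum was Ctsk, the collagen-degrading cathepsin K, at 178 and 169 CPM, which did not pass the test (log2 fold change 0.074, adjusted p = 0.108, edgeR) but was called higher without CRE3 (0.12, adjusted p = 0.0270) and lower with total counts alone (−0.14, adjusted p = 0.00511). Nfatc1, the transcription factor induced by RANK signalling, fell (−0.50). The others called, given after their values were seen, were Atp6v0d2 (−3.98), a proton pump subunit, and Acp5 (0.62), Itgb3 (0.65) and Mmp9 (1.99), and Mmp9 had at most 17 counts in any library. Oscar, also named after its values were seen, was tested but not called (0.97, adjusted p = 0.0856, edgeR). The 5 markers not tested were below the filter. Calcr had 4, 18 and 11 counts in CRE1 to CRE3 and 0, 0 and 1 in WT1 to WT3. Summed counts in the knockout against the wild type were 5 against 18 for Ocstamp, 3 against 7 for Siglec15 and 13 against 16 for Car2. The cell-fusion gene Dcstamp was at 0 in every knockout library and had 1 count in the wild type.

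**Figure D3:**
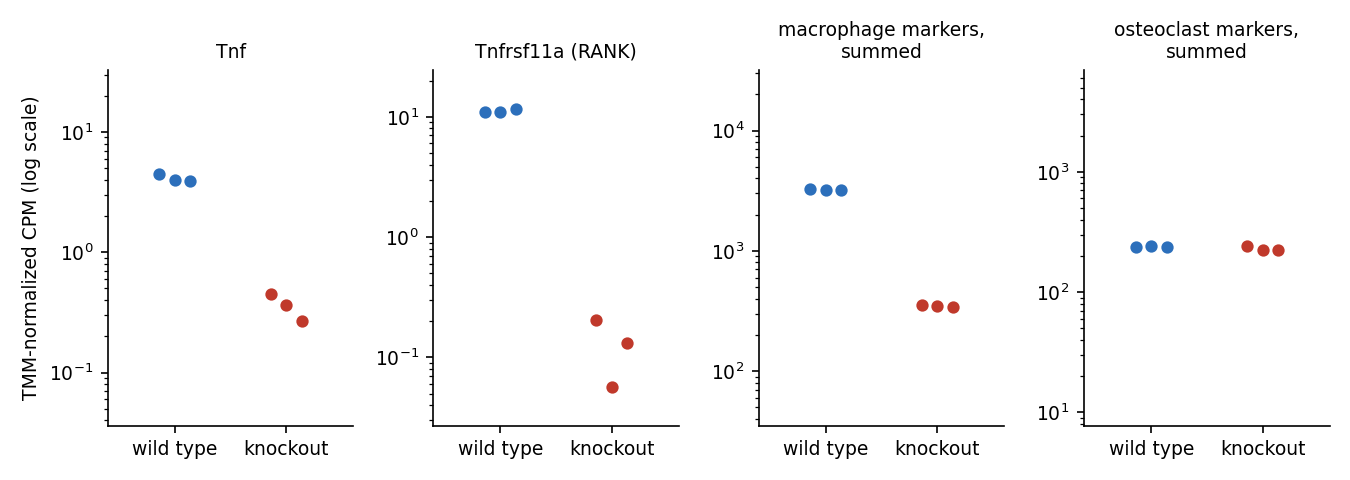
TMM-normalized CPM (log axes, each spanning the same fold range) of Tnf, Tnfrsf11a, the summed 16 macrophage and monocyte markers and the summed 12 osteoclast markers; points are the 3 libraries of each group. The first 3 drop in the knockout. The osteoclast sum, which is mostly Ctsk, stays at 224 to 242 CPM in all 6 libraries, while single osteoclast markers went both ways.

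TNF transcripts were scarce and fell. Tnf had 13, 13 and 8 counts in CRE1 to CRE3 and 189, 167 and 170 counts in WT1 to WT3, or 0.360 ± 0.091 against 4.11 ± 0.281 CPM. No knockout library came near a wild-type library. This was a log2 fold change of −3.50 (SE 0.246, adjusted p = 4.78e-09, edgeR). The wild-type over knockout ratio of summed counts, scaled by TMM library sizes, was 11.4 (95% interval 8.07 to 16.7, counting error only). The summed macrophage and monocyte markers fell 9.23-fold over the same libraries, and their part in the fall of Tnf was not tested. The closest profiles among 11551 compared genes were those of Ms4a6d (root mean square difference 0.112), Olfml1 (0.139) and Rassf4 (0.140). Here too the measure mostly follows the fold change, which was −3.35, −3.15 and −3.10 on the log2 scale.

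The receptors of TNF differed little between the groups. Tnfrsf1a, the widely expressed death-domain receptor TNFR1, was at 230, 220 and 218 CPM in CRE1 to CRE3 and at 183, 191 and 185 CPM in WT1 to WT3. Its 1.19-fold rise under TMM scaling (log2 fold change 0.25, SE 0.034, adjusted p = 8.00e-06, edgeR) was 0.044 with total counts alone (adjusted p = 0.237), and its FPKM overlapped between the groups, at 94.1 to 98.5 and 91.3 to 95.5. Tnfrsf1b, the receptor TNFR2 that has no death domain, rose from a mean of 49.9 ± 1.21 CPM to one of 63.6 ± 2.35 CPM (1.27-fold, log2 fold change 0.35, SE 0.045, adjusted p = 6.34e-06). This rise was smaller with total counts alone but still called (0.14, adjusted p = 0.0111). Per length, Tnfrsf1b was 12.5% ± 0.196 of Tnfrsf1a in knockout libraries against 11.7% ± 0.530. The log2 ratio differed by 0.096 (exact two-sided permutation p = 0.1), with groups that did not overlap but lay close together.

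Fas, the death receptor of Fas ligand, behaved much like Tnfrsf1a. It stood at 37.3, 39.0 and 41.2 CPM in the knockout libraries and at 33.0, 32.3 and 33.0 CPM in the wild-type libraries. With TMM its rise was 0.26 on the log2 scale (SE 0.052, adjusted p = 4.58e-04, edgeR) but 0.050 with total counts alone (adjusted p = 0.410). In FPKM the groups overlapped, at 14.1 to 15.6 for the knockout against 14.2 to 14.5. Its ligand gene Fasl had at most 1 count in any library.

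**Figure D4:**
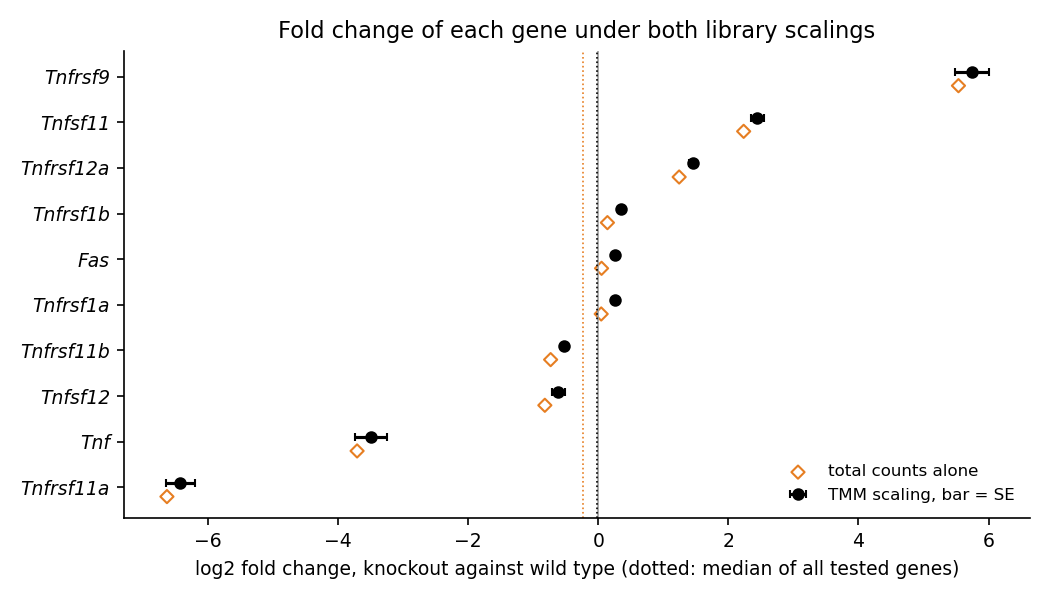
Log2 fold change of each of the 10 genes, knockout against wild type, with TMM scaling (black, bars are SEs) and with total counts alone (orange diamonds); dotted lines are the medians of all tested genes. The diamonds lie about 0.21 lower throughout, which takes Tnfrsf1a and Fas to 0.044 and 0.050.

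The TWEAK ligand and its receptor moved in opposite directions. Tnfrsf12a, which encodes Fn14, a small receptor induced by growth factors and injury, was at 59.0, 57.5 and 55.5 CPM in CRE1 to CRE3 and at 21.9, 19.2 and 21.7 CPM in WT1 to WT3. Every knockout library lay above the highest wild-type library, and the rise was 2.74-fold (log2 fold change 1.45, SE 0.058, adjusted p = 4.08e-12, edgeR). Tnfsf12, which encodes TWEAK, was at 8.31, 7.26 and 6.55 CPM in the knockout and at 11.2, 11.2 and 11.4 CPM in the wild type. It fell 1.53-fold (−0.61 on the log2 scale, SE 0.102, adjusted p = 7.70e-05), with more spread among the knockout libraries. Its span overlaps the fused gene Tnfsfm13 on the same strand and the antisense gene Tnfsf13os, which had 2 to 8 counts in knockout libraries against 19 to 30. The strand setting of the counting is not given, so the reads of these genes cannot be told apart.

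The largest rise was that of Tnfrsf9, the T cell costimulatory receptor 4-1BB, which other activated cells can also make. It had 288, 283 and 272 counts in CRE1 to CRE3 and 5, 4 and 12 counts in WT1 to WT3, or 8.98 ± 0.953 against 0.163 ± 0.0997 CPM. All knockout libraries were high and the wild-type libraries were near the limit of detection. This gave a log2 fold change of 5.74 (SE 0.256, adjusted p = 1.62e-11, edgeR), exceeded by 17 tested genes, and it was 6.35 without WT3. The knockout over wild-type ratio of summed counts, scaled by TMM library sizes, was 54.4 (95% interval 35.3 to 88.3, counting error only). Lymphocyte markers were at or near 0 in these libraries, as given above. Camta1, on the opposite strand over Tnfrsf9, had 123 to 185 counts in knockout libraries against 170 to 199. Tnfsf9, the ligand of 4-1BB, rose 2.10-fold, from 6.94, 6.75 and 8.21 CPM in WT1 to WT3 to 13.4, 15.0 and 17.7 CPM in CRE1 to CRE3 (log2 fold change 1.07, SE 0.113, adjusted p = 5.95e-07). Of the adaptors that 4-1BB is known to bind, Traf2 (0.74) rose and Traf1 (−0.85) fell, both named after their values were seen.

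The order of levels per length changed below the fifth place. In both groups the order began with Tnfrsf11b, Tnfrsf1a, Tnfrsf12a, Fas and Tnfrsf1b, and no neighbours among them overlapped within a group. Tnfrsf11b made up 41.1% of the summed FPKM of the 10 genes in the knockout against 59.3% in wild-type libraries, and Tnfrsf12a 16.6% and 6.10%. In the knockout Tnfsf11 came next (9.83 ± 0.714 FPKM), ahead of Tnfsf12 (4.05 ± 0.474) and Tnfrsf9 (3.55 ± 0.355), whose ranges overlapped, and then Tnf (0.202 ± 0.050) and Tnfrsf11a (0.019 ± 0.011). In the wild type Tnfsf12 (7.15 ± 0.090 FPKM) was followed by Tnf (2.67 ± 0.179), Tnfsf11 (2.09 ± 0.261) and Tnfrsf11a (1.86 ± 0.070), the last pair overlapping, and Tnfrsf9 (0.075 ± 0.046) came last.

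Among other ligands of the superfamily, Tnfsf9 (15.4 CPM in the knockout against 7.30 in the wild type) and Eda (5.73 against 7.83) had the highest means. Of 15 listed, 13 were analysed and 7 tested, with a median log2 fold change of 0.031, against −0.021 for all tested genes. Of the 7 tested, 2 rose and 2 fell (57.1% called, against 62.7% of all tested genes). Besides Tnfsf9, these were the death ligand Tnfsf10 (TRAIL, log2 fold change −3.05, at most 21 counts in a library), Eda (−0.45), a ligand of skin and tooth development, and Tnfsf15 (1.05). The call of Tnfsf15 was lost with upper-quartile or total-count scaling and without CRE2, CRE3, WT1 or WT3 (adjusted p = 0.0550 to 0.146). Lta, Ltb, Tnfsf4, Fasl, Tnfsf14 and Tnfsf18 did not pass the filter.

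Among other receptors 7 rose and 5 fell of 15 tested (80.0% called, against 62.7% of all tested genes), with 5 more below the filter. Tnfrsf23, a mouse decoy receptor of TRAIL, stood at 106 ± 2.69 CPM against 36.3 ± 2.20 CPM, 2.93-fold higher, and its neighbouring paralog Tnfrsf22 rose 1.78-fold. Separate counts of these related copies are uncertain. Tnfrsf13b (TACI, a B cell receptor that myeloid cells also make) fell 14.7-fold, from 3.32 to 0.233 CPM, and Tnfrsf14 (HVEM) fell 2.01-fold. With upper-quartile factors or total counts alone, 4 receptors rose in place of 7.

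Adaptors, ubiquitin ligases and death effectors gave 12 rises, 6 falls and 8 genes that did not pass the test, of 26 tested (median log2 fold change 0.16). Of this list 69.2% were called, against 62.7% of all tested genes. The necroptosis kinase Ripk3 rose 2.02-fold and its pore-forming substrate Mlkl 1.68-fold. Cflar, an inhibitor of caspase-8 activation, rose 1.62-fold, from 108 to 175 CPM, and Traf6, the adaptor that RANK uses, rose 1.68-fold. With total counts alone the list gave 10 falls. In the list of sheddases and their partners 3 of 6 tested genes rose and 1 fell (66.7% called, against 62.7% of all tested genes). Adam17, the enzyme that releases TNF from the membrane, rose 1.23-fold (log2 fold change 0.30). With total counts alone its log2 fold change was only 0.089 (adjusted p = 0.0373, edgeR). The iRhom partners of Adam17, Rhbdf2 and Rhbdf1, rose 1.49-fold and 1.17-fold, the last not called with total counts alone (adjusted p = 0.793). Timp3, the tissue inhibitor of Adam17, fell 1.90-fold, from 7431 to 3914 CPM.

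Genes known to be induced by TNF mostly rose while the ligand fell. Of 20 tested, 16 rose and 2 fell around a median of 0.79 on the log2 scale, and 90.0% were called against 62.7% of all tested genes. The cytokine Il6 was at 38.9, 40.2 and 41.7 CPM in the knockout libraries and at 1.08, 0.781 and 1.48 CPM in the wild-type libraries (log2 fold change 5.17). The chemokine Cxcl1 rose 15.8-fold, from 21.7 to 343 CPM, Ccl2 rose 3.85-fold and Ccl5 rose 3.16-fold. The 2 that fell were the adhesion molecules Vcam1 (−0.57) and Icam1 (−0.15), which were picked out once values were known. These genes also answer to interleukin 1, Toll-like receptors and other NF-kB inputs, and the list does not tell these apart. Macrophage and monocyte markers fell over the same libraries (median −4.02). Of 3 tested neutrophil markers, Camp (3.48 against 0.179 CPM) and S100a8 (2.51 against 0.218 CPM) rose. The third, S100a9, named after its values were seen, did not pass the test (log2 fold change −0.68, adjusted p = 0.490, edgeR). The other 5 neutrophil markers were below the filter. Of these, Ly6g, Elane and Retnlg were at 0 in every knockout library, with 1, 1 and 3 summed wild-type counts. Ngp had 1 against 7 summed counts and Mpo 2 against 0, knockout against wild type. The part of macrophage and neutrophil markers in the rises was not tested.

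Other partners and regulators of RANKL and OPG gave 4 rises and 8 falls among 16 tested genes (median log2 fold change −0.27). Of this list 75.0% were called, against 62.7% of all tested genes. The oncostatin M receptor Osmr and the shared subunit Il6st, through which cytokines of the IL-6 family can induce RANKL, rose 1.78-fold and 1.59-fold. Csf1, the growth factor that osteoclast precursors need beside RANKL, fell 1.21-fold, from 785 to 651 CPM, and Wnt16, a bone-protective WNT ligand, fell 1.78-fold.

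**Figure D5:**
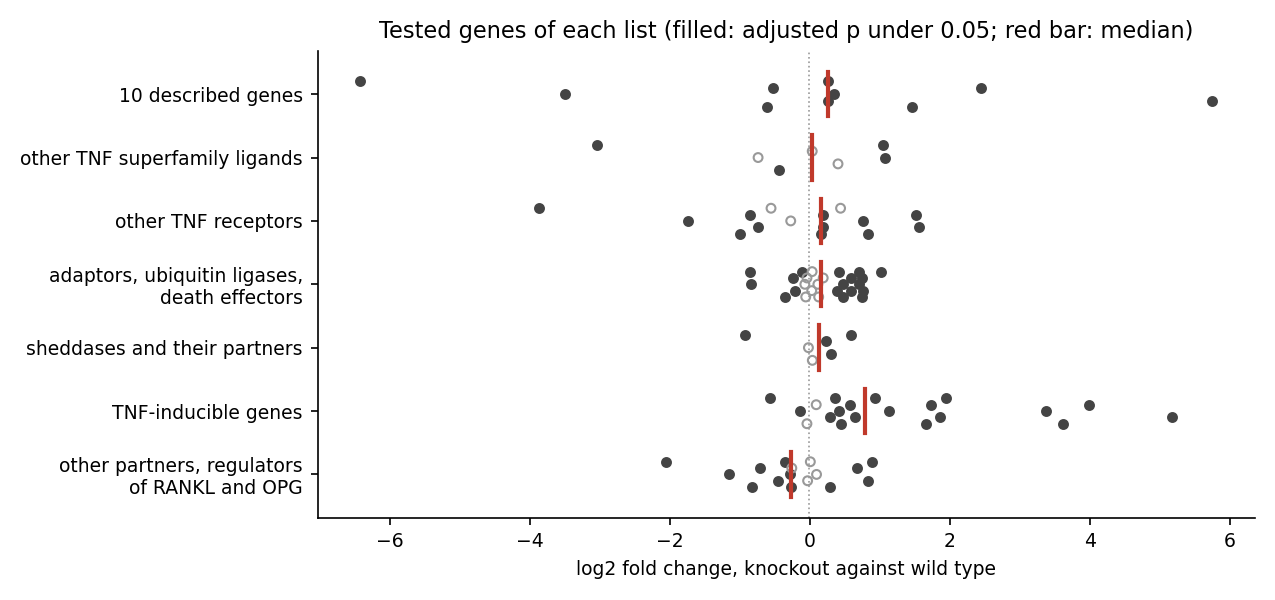
Log2 fold change, knockout against wild type, of every tested gene in the 10 described genes and in 6 lists of the pathway; filled points passed an adjusted p under 0.05, open points did not, red bars are medians and the dotted line is the median of all tested genes. The list of TNF-inducible genes has its median at 0.79, and the other 5 lists have theirs between −0.27 and 0.16.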

How the data were processed

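Total RNA of mouse chondrocytes was sequenced in 3 wild-type and 3 knockout libraries (TRIzol extraction and a VAHTS library kit, per the labels' protocols). Tools named by the submitters' processing notes are HISAT2, HTSeq and fastp, with GRCm39 as the build and no versions or roles. Annotation, strand setting and filters are not stated in any source used. Per the file headers, each table has 6 library columns. The authors deposited whole-number read counts per gene and FPKM values. For 11533 genes with at least 50 counts in each library, the deposited FPKM equalled the count over the column total and 1 length per gene within 0.1%, so FPKM carries the total-count scaling. Wild-type columns matched sample titles; the columns CRE1 to CRE3 showed their group only. Replicate libraries differed by more than sampling noise (chi-square per degree of freedom 3.12 to 7.65) and were counted separately.

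Counts were tested in R 4.3.3 by the quasi-likelihood method of edgeR 4.0.16 (group alone, TMM, filterByExpr with a minimum count of 10, Benjamini-Hochberg over 15028 genes, called under 0.05). The biological coefficient of variation was 4.88%, and the library totals of 31481779 to 40152687 counts bound what low genes can show. SEs are the size of the log2 fold change over the square root of F. Ratios used FPKM and an exact permutation test over libraries (Python 3.11.15). Alternatives were DESeq2 1.42.0, limma-voom (limma 3.58.1), DESeq2's, upper-quartile and total-count scaling (also without the 20 most abundant genes), 2 other filters, each library left out, a replicate block, and limma on log2(FPKM + 1) and log2(FPKM + 0.1).

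The genes and lists were chosen with earlier results of these data known. Named were the 10 genes, Mfn2, up to 4 genes with the smallest p per pathway list, up to 2 of the most abundant of each marker list and the 3 closest profiles of Tnf, Tnfsf11 and Tnfrsf11b. Not all listed symbols were matched (13 of 15 other ligands, 20 of 21 other receptors, 16 of 17 regulators and 6 of 10 lymphocyte markers); the rest are not analysed here. Promoters came from RefSeq on GRCm38.p6, a build other than that of the counts.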

Additional observations from a re-analysis of the deposited data

How the results depend on the processing

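Of the 10 genes, 8 kept their direction and their call under every alternative that gave a value. Tnfrsf11a gave none on log2(FPKM + 1) or log2(FPKM + 0.1) with the filter on low values. Tnfrsf1a and Fas kept their direction but were not called with total counts alone or in the 3 fits on FPKM (adjusted p = 0.196 to 0.249 and 0.362 to 0.435). Between 7 and 10 of the 10 genes were called, and all 10 whichever library was left out. On log2(FPKM + 1) the fold changes of low genes shrink, with Tnf at −1.61 and Tnfrsf9 at 2.08. Genes called higher numbered 4607 and genes called lower 4823 in the main test. They numbered 2791 and 7625 with total counts alone, 2354 higher on log2(FPKM + 1), 2345 higher on log2(FPKM + 0.1), and 2706 and 7328 on unfiltered log2(FPKM + 1). Rises were 48.9% of the calls with TMM, 38.0% with upper-quartile factors, 34.1% without the 20 most abundant genes and 26.8% with total counts alone. Signs turned for genes near 0. Ctsk was at −0.017 with upper-quartile factors, −0.14 with total counts alone, −0.055 without the 20 most abundant genes, and −0.13 and −0.14 on log2(FPKM + 1) and log2(FPKM + 0.1). Col1a1 was at −0.085, −0.20 and −0.12 under those scalings, −0.20 in the FPKM fits, and −0.029 to 0.047 with a library left out. Tek was at −0.31 to 0.12 with a library left out. A replicate block by the final digit of the column names gave 9094 called genes against 9430, with all 10 genes called. Same-numbered libraries did not deviate together (correlations −0.095 to 0.055), CRE1 correlated best with WT3, and the numbers were not read as pairs. The difference in the log2 ratio of Tnfsf11 to Tnfrsf11b was 2.91 to 3.06 with a library left out, 2.92 with 0.1 added to FPKM, and 2.97 with the replicate block (exact permutation of signs, p = 0.25). The difference in the log2 ratio of Tnfrsf1b to Tnfrsf1a was 0.062 to 0.13 with a library left out. Among the lists, upper-quartile and total-count scaling gave 1 rise in place of 2 among other ligands and 2 and 3 falls in place of 1 among sheddases, and a CPM above 1 in 3 libraries left 1 rise and 1 fall among other ligands. The cause of these changes was not tested. Depth limits Tnf and Tnfrsf11a in the knockout and Tnfrsf9 in the wild type, where libraries held at most 13 counts.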
